A study of Mus musculus with 8 samples.

Results

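The genes described here are 10 genes linked to the FOXO transcription factors and to quiescence, the resting state of a cell outside the division cycle. They are Foxo1, Foxo3, Sesn1, Ypel2, Ypel3, Ypel5, Txnip, Pik3ip1, Ccng2 and Tsc22d3. They were taken by symbol from the 55880 rows of the expression table, where each symbol stood on 1 row, and all 10 passed the filter on low counts that kept 14074 rows for testing. The list was drawn up with the results of the comparison below already known, so the members' differences between the groups are given as a description. No p-value is given for a member, and the number of members past the threshold of the all-gene fit stands beside the share of all genes with nothing read from it.

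Poly(A) RNA was sequenced from mouse bone marrow-derived dendritic cells (BMDCs), 4 libraries labelled LMF and 4 labelled Control. All were grown from the marrow of male wild-type C57BL/6 mice aged 6 weeks, for 6 days with 20 ng/mL GM-CSF and 10 ng/mL IL-4 in RPMI with 10% FBS. The LMF cells were held with a preparation labelled ITRs for 24 h before a magnetic field of low frequency (LMF) was applied, Control cells are described as untreated, and RNA was taken 6 h after treatment. Groups follow the sample titles and the treatment protocol. Another label field names 1 and the same magnetic treatment for all 8 libraries, Control included, so the labels conflict on what Control received. The labels do not spell out ITR, and with no library that had the ITRs or the field alone, their contributions cannot be told apart.

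FOXO proteins are forkhead transcription factors. When growth factors activate PI3-kinase and then AKT, AKT phosphorylates FOXO proteins and they leave the nucleus. When that signal is low they stay in the nucleus and drive genes for cell cycle arrest, stress resistance, autophagy and restraint of mTORC1, the kinase complex that promotes growth. The other members are linked to FOXO activity or to resting cells: some were described as FOXO targets, others hold back growth signalling or are abundant in cells that do not divide.

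The libraries held 16592672 to 18532878 gene counts in LMF and 17309368 to 21585750 in Control. Library pairs within a group differed by 3.50 to 7.80 times the sampling noise (a chi-square of gene counts divided by its degrees of freedom), and pairs across groups by 26.6 to 35.2 times, so no library was a second copy of another. LMF replicate 4 stood apart from the rest of its group on the second principal component, at 27.2 against -14.0 to -6.79 for the other LMF libraries, and that component held 10.7% of the variance. By the chi-square measure it was LMF replicate 1 that differed most from its group. Its LMF pairs stood at 5.87, 7.62 and 7.80 times the sampling noise, and the other LMF pairs at 3.65 to 4.95. Across all tested genes the median log2 fold change, LMF over Control, was -0.00. The middle 90% of genes lay between -0.56 and 0.63.

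Forkhead proteins bind the letters GTAAACA, and the promoters that hold them are shown because several members were described as FOXO targets. For the same reason the letters are tied to the choice of genes, and their share is a description and not an independent feature. RefSeq windows on build GRCm38.p6, from 250 bases before to 50 bases after a transcription start, were matched for all 10 members, in 14 windows. GTAAACA, searched on both strands, was found in 3 of the 14 windows, 1 each of Txnip, Ypel3 and Sesn1, against 3.65% of all 32851 mouse windows and 2.58% of the 12893 windows of tested genes. The windows are written 5′ to 3′ on the strand of the gene, with GTAAACA, or its reverse complement TGTTTAC, in capitals. Ypel2, the member with the largest difference between the groups, held neither and is shown beside them.
Txnip: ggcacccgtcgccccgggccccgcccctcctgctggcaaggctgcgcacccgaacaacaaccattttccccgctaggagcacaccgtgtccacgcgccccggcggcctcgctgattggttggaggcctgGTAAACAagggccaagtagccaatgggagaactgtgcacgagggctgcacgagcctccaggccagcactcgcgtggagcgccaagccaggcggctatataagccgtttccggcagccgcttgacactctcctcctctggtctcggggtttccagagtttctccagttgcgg
Ypel3: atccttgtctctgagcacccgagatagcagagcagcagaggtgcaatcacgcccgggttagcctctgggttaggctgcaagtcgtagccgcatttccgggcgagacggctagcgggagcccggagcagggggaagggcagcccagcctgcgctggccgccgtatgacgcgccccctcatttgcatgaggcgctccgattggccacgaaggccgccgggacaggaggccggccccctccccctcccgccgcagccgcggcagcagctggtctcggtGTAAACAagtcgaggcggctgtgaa
Sesn1: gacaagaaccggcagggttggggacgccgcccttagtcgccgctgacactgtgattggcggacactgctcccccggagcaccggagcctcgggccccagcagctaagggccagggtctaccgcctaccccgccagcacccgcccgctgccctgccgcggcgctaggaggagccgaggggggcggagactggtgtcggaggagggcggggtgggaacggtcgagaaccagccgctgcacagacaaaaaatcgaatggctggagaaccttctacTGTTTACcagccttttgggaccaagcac
Ypel2: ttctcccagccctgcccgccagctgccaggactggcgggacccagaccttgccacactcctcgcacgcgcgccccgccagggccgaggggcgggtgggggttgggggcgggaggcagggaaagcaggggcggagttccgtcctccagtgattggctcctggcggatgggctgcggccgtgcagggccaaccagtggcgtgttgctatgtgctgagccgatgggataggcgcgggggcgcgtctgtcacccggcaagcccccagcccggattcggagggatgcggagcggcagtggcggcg

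The Txnip window lay at chr3:96557707-96558006 on the plus strand, the Ypel3 window at chr7:126776713-126777012 on the plus strand, the Sesn1 window at chr10:41810324-41810623 on the plus strand, and the Ypel2 window at chr11:86993713-86994012 on the minus strand. The letters began at base 130 of the Txnip window, upstream of the start, and at base 276 of the Ypel3 window and base 273 of the Sesn1 window, both downstream of it. In Txnip and Ypel3 the next base was A, which completes GTAAACAA, the longer DAF-16 binding element first described for the worm FOXO protein. That element, which contains GTAAACA, was present in 1.23% of all windows and 0.799% of those of tested genes. The second Sesn1 window, at another start, held neither. The E-box CACGTG was found in 1 window of Ypel5 and the glucocorticoid receptor half-site AGAACA in 1 window of Tsc22d3, both searched on both strands. These letters stood in 9.75% and 13.01% of the windows of tested genes. The member windows held 3 to 41 CpG dinucleotides with a median of 26, against a median of 20 in windows of tested genes. A match of letters is a description and not a measured binding site. Of the 3 genes with GTAAACA, Sesn1 and Ypel3 were lower in LMF, and for Txnip the groups overlapped.

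Foxo3, one of the FOXO transcription factors itself, was lower in all 4 LMF libraries. It had 52.5, 52.2, 56.7 and 57.5 CPM (the deposited counts scaled by library total and TMM factors) in LMF replicates 1 to 4, against 82.4, 87.3, 83.4 and 78.4 CPM in Control replicates 1 to 4. The highest LMF library lay well below the lowest Control library. The log2 fold change was -0.60 ± 0.05 (SE of the all-gene fit, n = 4 each), and the LMF level was 66.0% of the Control level. Foxo1, its paralog, had 19.1, 14.3, 15.8 and 15.02 CPM in LMF, against 19.1, 17.4, 14.8 and 17.9 CPM in Control. Its groups overlapped, with a log2 fold change of -0.11 ± 0.10. These are bulk libraries, in which fewer cells of a type and less RNA per cell cannot be told apart.

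Sesn1 encodes sestrin 1, a target of FOXO and p53 that holds mTORC1 down through the GATOR complexes when amino acids are scarce. It had 32.9, 36.0, 35.8 and 37.9 CPM in LMF, against 67.5, 71.9, 64.8 and 68.5 CPM in Control. The groups were far apart, and the LMF level was 52.3% of the Control level, a log2 fold change of -0.94 ± 0.06. Pik3ip1 encodes a membrane protein that binds and inhibits PI3-kinase, upstream of FOXO. It had 7.07, 6.82, 5.94 and 6.69 CPM in LMF and 7.24, 5.06, 7.03 and 6.17 CPM in Control. The groups overlapped at a log2 fold change of 0.05 ± 0.14, and each library held 95 to 158 counts of it.

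The yippee-like genes encode small zinc-binding proteins. YPEL3 is known in human cells as a p53 target that restrains growth, and YPEL5 is a component of the CTLH ubiquitin ligase. Ypel2 had 14.5, 13.9, 12.7 and 13.03 CPM in LMF, against 31.9, 30.8, 30.2 and 33.3 CPM in Control. Its LMF level was 43.0% of the Control level, the largest difference among the members, at a log2 fold change of -1.22 ± 0.08. That placed it in the lowest 0.462% of all tested genes. Ypel3 had 105.8, 96.8, 91.2 and 94.0 CPM in LMF, against 148, 159.8, 169 and 157 CPM in Control, again with no overlap. Its log2 fold change was -0.71 ± 0.05, and its LMF level was 61.1% of the Control level. Ypel5 had 89.4, 86.4, 93.2 and 81.4 CPM in LMF and 89.3, 81.5, 82.8 and 91.3 CPM in Control. Its groups overlapped almost wholly, at a log2 fold change of 0.02 ± 0.05.

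**Figure D1:**
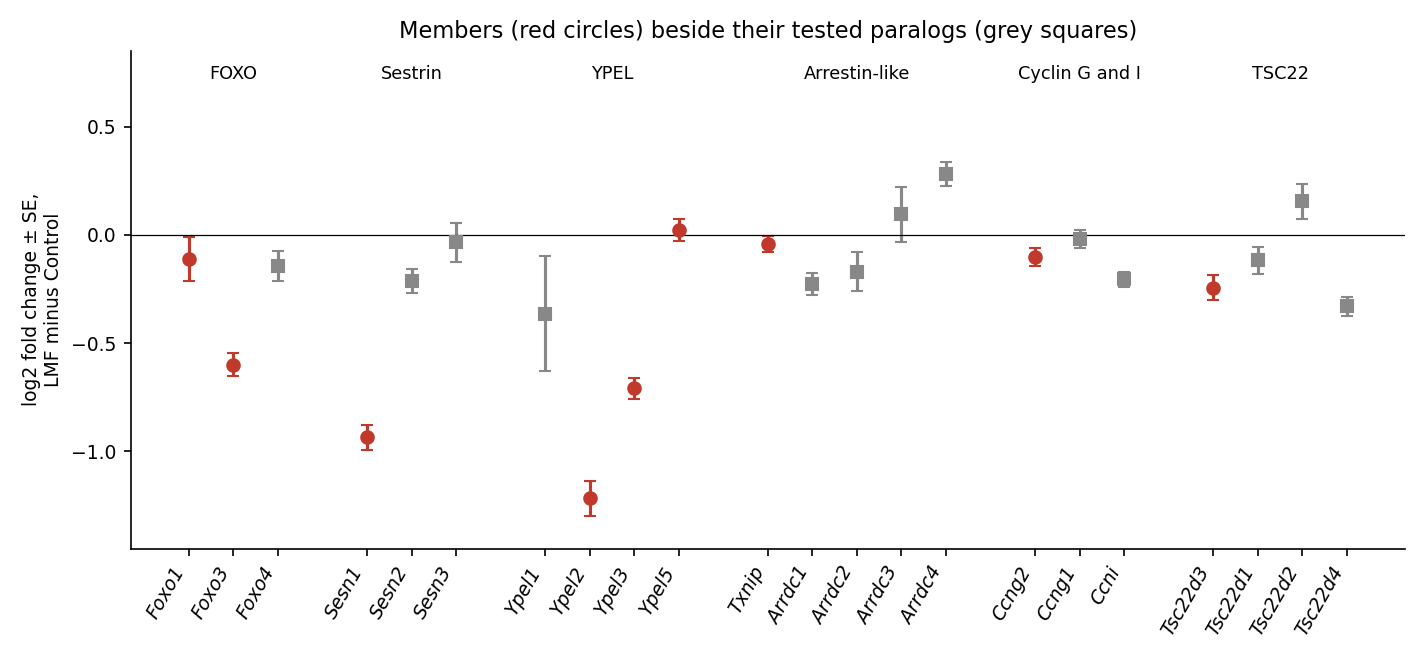
Log2 fold change, LMF over Control, on the vertical axis with its SE from the all-gene fit, for the members (red circles) and their tested paralogs (grey squares), grouped by gene family. Pik3ip1 is not drawn. Points below 0 were lower in LMF, with Ypel2, Sesn1, Ypel3 and Foxo3 lowest and Ypel5, Sesn3 and Ccng1 close to 0.

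Txnip encodes thioredoxin-interacting protein, an arrestin-family protein that binds thioredoxin and takes glucose transporters off the cell surface. It had 244, 255, 261 and 252 CPM in LMF and 266, 262, 256 and 257 CPM in Control. The groups overlapped, at a log2 fold change of -0.04 ± 0.04. Ccng2 encodes cyclin G2, an unconventional cyclin tied to cell cycle arrest. It had 103, 105, 105 and 105 CPM in LMF, against 115, 113, 106 and 115 CPM in Control. Every LMF library was below every Control library, but the gap between the nearest libraries was small and the log2 fold change was -0.10 ± 0.04. Tsc22d3 encodes GILZ, the glucocorticoid-induced leucine zipper protein that restrains NF-kappaB and AP-1. It had 45.6, 54.2, 51.0 and 51.1 CPM in LMF, against 59.7, 64.2, 57.0 and 58.2 CPM in Control. The groups did not overlap, and the LMF level was 84.4% of the Control level, at a log2 fold change of -0.24 ± 0.06.

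**Figure D2:**
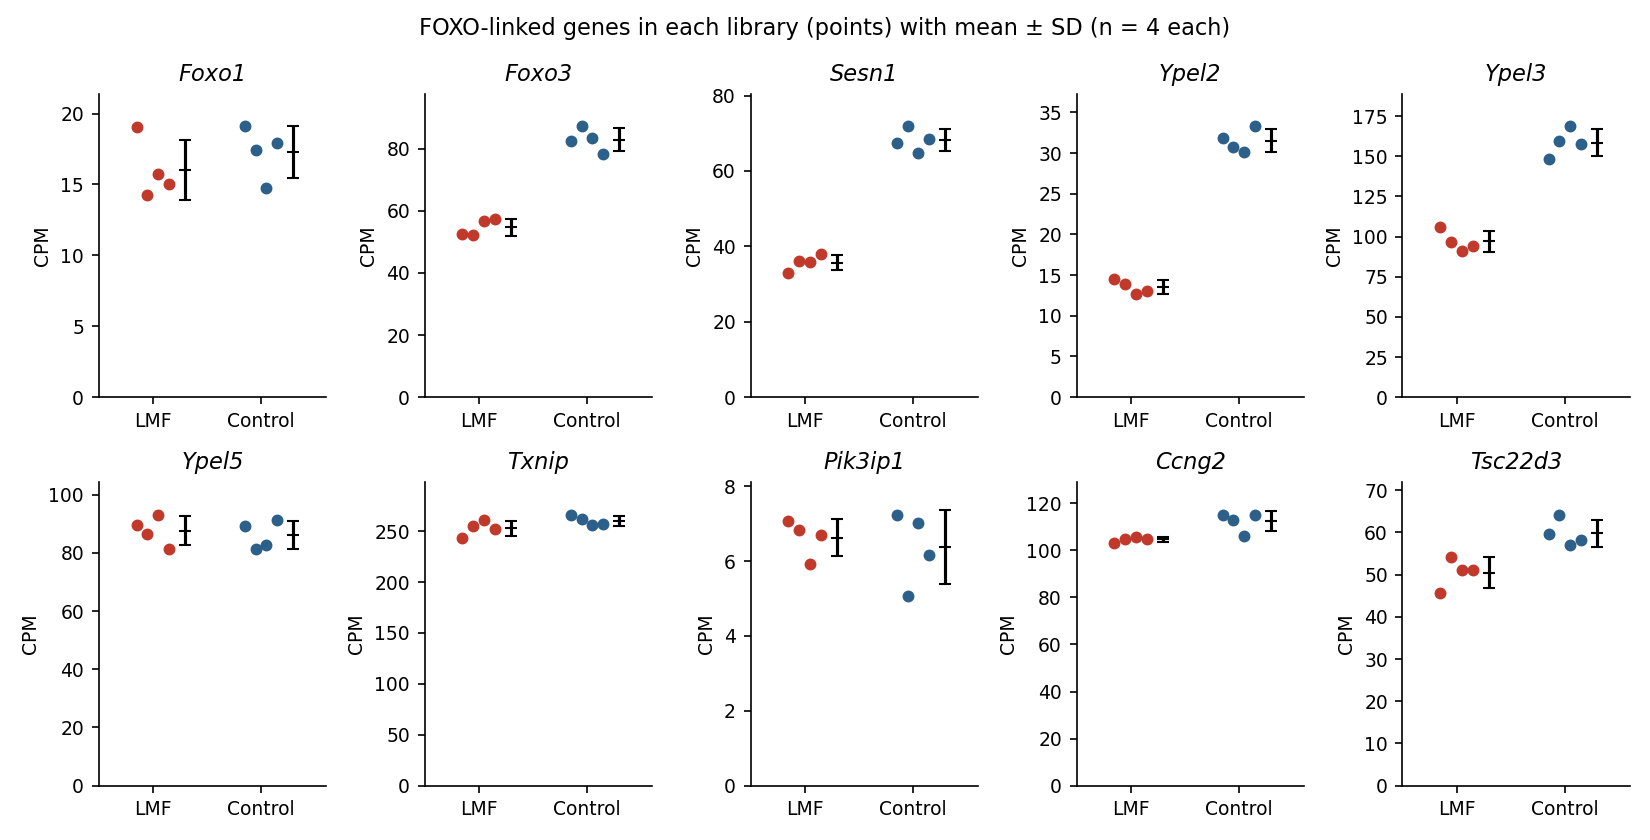
CPM of each member in each library, 1 panel a gene, with LMF on the left and Control on the right; points are libraries and the bar beside them is the mean with SD (n = 4 each). LMF lies wholly below Control for Foxo3, Sesn1, Ypel2, Ypel3, Ccng2 and Tsc22d3, and the groups overlap for Foxo1, Ypel5, Txnip and Pik3ip1.

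In all, 6 of the 10 members were lower in every LMF library than in any Control library, where 15.7% of all tested genes were, and 0 were higher in every one, where 16.1% of all tested genes were. At an adjusted p of 0.05 over all tested genes, 5 of the 10 were called lower (Foxo3, Sesn1, Ypel2, Ypel3 and Tsc22d3), against 16.9% of all tested genes. None was called higher by edgeR or DESeq2, against 17.5% of all tested genes by edgeR, and 34.4% of all tested genes were called in either direction. Since the members were picked on this comparison, nothing is read from these counts. The median of the 10 log2 fold changes was -0.18, with a range of -1.22 to 0.05. Summed over the members, LMF libraries held 714 to 729 CPM (719 ± 7.06, SD) and Control libraries 871 to 893 CPM (884 ± 9.35).

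**Figure D3:**
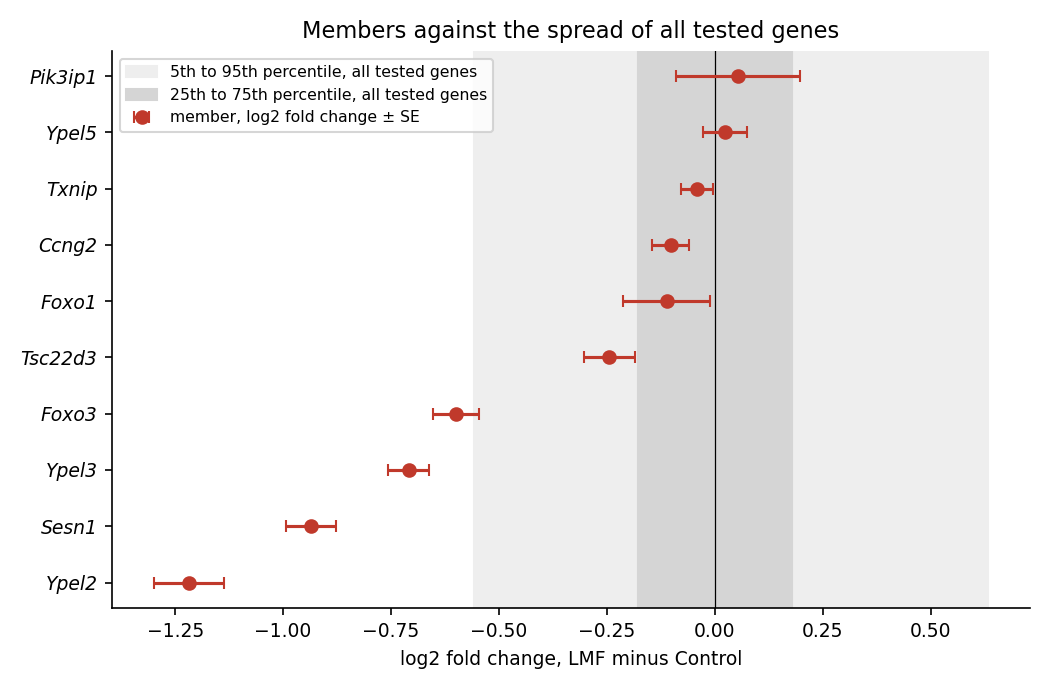
Log2 fold change, LMF over Control, of each member with its SE from the all-gene fit; the pale band marks the middle 90% of all tested genes, from -0.56 to 0.63, and the darker band the middle 50%. Ypel2, Sesn1, Ypel3 and Foxo3 lie to the left of the pale band and the other 6 members inside it.

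The spread between replicates differed from member to member. The coefficient of variation of CPM ran from 0.899% for Ccng2 to 13.2% for Foxo1 in LMF, and from 1.87% for Txnip to 15.5% for Pik3ip1 in Control. LMF replicate 1 was the highest or the lowest of its group for 8 of the 10 members, highest for 4 and lowest for 4, so it was not shifted one way. Control replicate 3 was the lowest of its group for 6 members. Without LMF replicate 1, 5 members and 2531 of all tested genes were called lower, and without LMF replicate 4, 5 members and 2196 genes, against 5 and 2381 with all libraries. As the members were chosen on this comparison, nothing is read from that count.

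Levels of different genes were compared on FPKM, a level scaled by transcript length and library size, as deposited. In LMF, Txnip was highest at 80.7 ± 2.23 FPKM, then Ypel3 at 52.3 ± 3.47, Ypel5 at 20.9 ± 1.23, Ccng2 at 19.1 ± 0.195 and Tsc22d3 at 11.6 ± 0.767. Sesn1 followed at 8.92 ± 0.505 FPKM, Foxo3 at 7.20 ± 0.401, Ypel2 at 2.79 ± 0.166, Foxo1 at 1.84 ± 0.252 and Pik3ip1 at 1.55 ± 0.112 (SD, n = 4). In that group the only neighbours whose libraries overlapped were Foxo1 and Pik3ip1. In Control, Ypel3 came first at 85.9 ± 4.34 FPKM beside Txnip at 83.5 ± 2.07, and these overlapped, as did Ypel5 at 20.6 ± 1.15 and Ccng2 at 20.6 ± 0.802. Sesn1 stood at 17.1 ± 0.719 FPKM, Tsc22d3 at 13.8 ± 0.744, Foxo3 at 10.96 ± 0.513, Ypel2 at 6.52 ± 0.271, and Foxo1 at 2.00 ± 0.218 overlapped Pik3ip1 at 1.49 ± 0.238. The order thus differed between the groups in that Ypel3 was below Txnip in every LMF library, and Sesn1 was below Tsc22d3 in LMF but above it in Control.

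**Figure D4:**
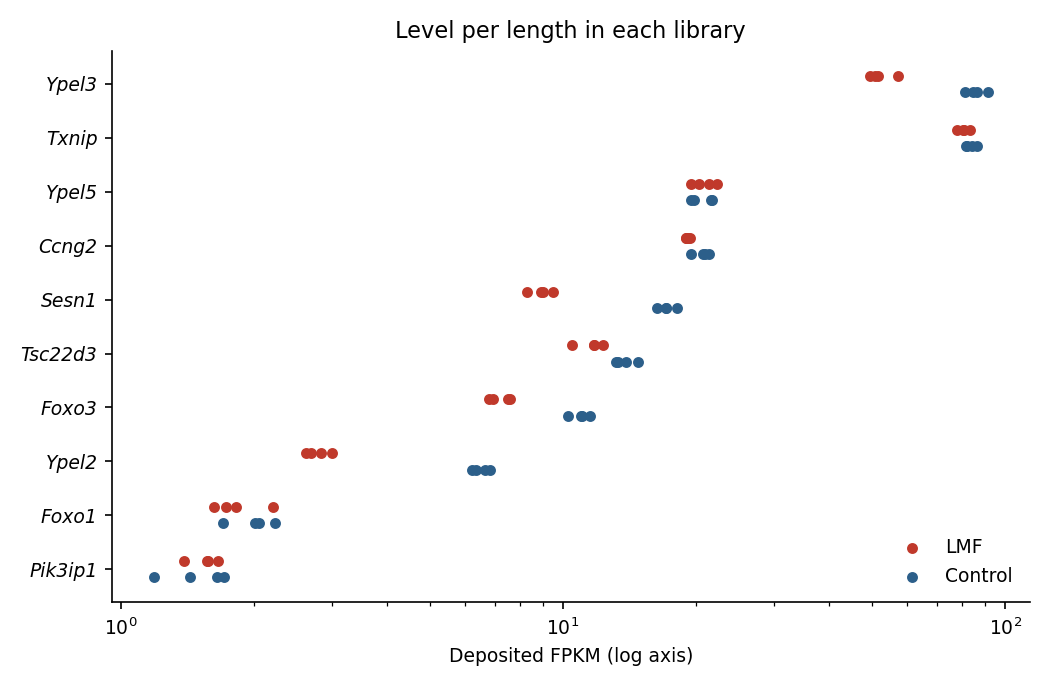
Deposited FPKM of each member on a log axis, with LMF drawn above Control for each gene; points are libraries. Ypel3 and Txnip lie highest and Pik3ip1 and Foxo1 lowest, and the groups stand farthest apart for Ypel2 and Sesn1.

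The loci of the members were spread over the genome except for one pair. In the table's own coordinates, which conflict with the build named in the submitters' processing notes, mm10, in that 0 of the 10 members have the start and end of the GENCODE M21 annotation of mm10, Sesn1 (ENSMUSG00000038332) spans chr10:41685931-41784420 on the plus strand and Foxo3 (ENSMUSG00000048756) spans chr10:42057837-42152751 on the minus strand, 273 kb apart. Ypel2 (ENSMUSG00000018427) spans chr11:86827251-86884533 on the minus strand and Ypel3 (ENSMUSG00000042675) spans chr7:126376127-126379686 on the plus strand. On the plus strand, Foxo1 (ENSMUSG00000044167) spans chr3:52175757-52260642, Txnip (ENSMUSG00000038393) chr3:96465273-96469199, Ccng2 (ENSMUSG00000029385) chr5:93415116-93424090, Pik3ip1 (ENSMUSG00000034614) chr11:3280401-3292971 and Ypel5 (ENSMUSG00000039770) chr17:73143448-73158190. Tsc22d3 (ENSMUSG00000031431) spans chrX:139440277-139501408 on the minus strand. Of the 36 rows within 500 kb of the Sesn1 and Foxo3 pair, 14 were tested. Of these, 4 were called lower, Sesn1 and Foxo3 included, and 2 higher, against 16.9% and 17.5% of all tested genes. Nothing is read from these counts. Besides Sesn1 and Foxo3, Smpd2 (-0.36 ± 0.09, adjusted p = 0.00173) and Ostm1 (-0.18 ± 0.05, adjusted p = 0.00171) were called lower, and Sec63 (0.22 ± 0.04, adjusted p = 1.81e-04) and Tdg-ps2 (0.66 ± 0.22, adjusted p = 0.0169) higher. Tdg-ps2 and Armc2 are the 2 tested genes between Sesn1 and Foxo3, and Armc2 was not called at 0.54 ± 0.38 (adjusted p = 0.288). Tdg-ps2 held 33 to 68 counts in each library, and whether its reads could come from other genes was not examined. These neighbours were named after their values were seen.

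Reads that other genes could share were few for the members with the largest differences. None of the 50-base windows of the M21 transcripts of Foxo3, Sesn1, Ypel2, Ypel3 and Ccng2 occurred in another gene's transcripts. The shares were 15.7% for Txnip, all with Gm15441, a gene on the opposite strand that held at most 14 counts in a library, 6.80% for Foxo1, and 1.17% or less for Ypel5, Pik3ip1 and Tsc22d3. Whether counting used strand is not given in the sources used here, so reads of Txnip and Gm15441 cannot be told apart.

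Like the members, the related gene lists described from here on were chosen with earlier results of these data known. Their called shares and adjusted p-values are therefore a description. Paralogs of the members were lower in 4 of 13 tested and higher in 1, a called share of 38.5% against 34.4% of all tested genes, with a median log2 fold change of -0.14. Among the FOXO genes, Foxo4 stood at -0.14 ± 0.07 (edgeR adjusted p = 0.113) and Foxo6 was not tested, with 0 to 4 counts in each library. Sestrin 2, Sesn2, was lower at -0.21 ± 0.06 (adjusted p = 0.00274) and Sesn3 was near 0 at -0.03 ± 0.09 (adjusted p = 0.808). Ypel1 had 2.07 CPM in LMF and 2.67 CPM in Control (-0.36 ± 0.27, adjusted p = 0.312), and Ypel4 held 1 to 9 counts and was not tested. Of the arrestin-family relatives of Txnip, Arrdc4 was higher at 0.28 ± 0.05 (adjusted p = 9.11e-05) and Arrdc1 lower at -0.23 ± 0.05 (adjusted p = 5.31e-04). Arrdc2 at -0.17 ± 0.09 and Arrdc3 at 0.09 ± 0.13 were not called, and Arrdc5 held 0 counts. Among cyclin relatives, Ccng1 stood at -0.02 ± 0.04 and was not called, whereas Ccni was lower at -0.21 ± 0.04 (adjusted p = 1.81e-05). Tsc22d4 was lower at -0.33 ± 0.05 (adjusted p = 2.67e-07), while Tsc22d1 at -0.12 ± 0.06 and Tsc22d2 at 0.15 ± 0.08 were not called. Without LMF replicate 1, 3 paralogs were higher rather than 1, and without Control replicate 2, 2 were.

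Regulators of the pathway, from PI3-kinase subunits and AKT to 14-3-3 proteins and mTORC1 components, were higher in 21 of 46 tested and lower in 6, a called share of 58.7% against 34.4% of all tested genes (17.5% higher and 16.9% lower). The median was 0.11. Pik3r5, a regulatory subunit of PI3-kinase gamma, averaged 405 CPM in LMF and 290.4 CPM in Control (0.48 ± 0.04, adjusted p = 3.06e-13). Sgk1, an AKT-like kinase that also phosphorylates FOXO proteins, was higher at 0.46 ± 0.04 (adjusted p = 3.67e-11). Sirt1, a deacetylase that acts on FOXO proteins, was higher at 0.63 ± 0.06 (adjusted p = 2.44e-10). Deptor, an inhibitor of mTOR, averaged 21.6 CPM in LMF and 39.5 CPM in Control, a log2 fold change of -0.87 ± 0.07 (adjusted p = 1.61e-12).

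Other genes reported as FOXO targets did not share a direction, with 9 of 36 tested higher, 9 lower (50% called, against 34.4% of all tested genes) and a median of -0.00. The list was not split into genes that FOXO proteins raise and genes that they lower, and why the directions differed was not tested. It also shares genes with other lists, such as Ccnd2 with proliferation and Cdkn1a with cell cycle exit. Sod2, the mitochondrial superoxide dismutase, was higher, with 367 CPM in LMF and 117 CPM in Control (1.65 ± 0.04, adjusted p = 3.33e-27). Gadd45a, a growth arrest and DNA damage gene, was higher at 0.88 ± 0.09 (adjusted p = 1.21e-09). Pink1, the kinase that marks damaged mitochondria, was lower at -0.53 ± 0.05 (adjusted p = 5.48e-10), and Trp53inp1, a p53-induced gene that acts in autophagy, at -0.50 ± 0.05 (adjusted p = 3.62e-11).

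Genes of cell cycle exit were lower in 8 of 32 tested and higher in 4, a called share of 37.5% against 34.4% of all tested genes. The median of 0.03 was near 0, and without Control replicate 2 it was -0.0203. Mxd4, a MYC antagonist, was lower, with 53.5 CPM in LMF and 98.8 CPM in Control (-0.89 ± 0.06, adjusted p = 8.04e-15). Dyrk1b, a kinase that maintains quiescence, was lower at -0.69 ± 0.09 (adjusted p = 8.16e-08), and the antiproliferative gene Btg2 at -0.31 ± 0.05 (adjusted p = 2.42e-06). Cdkn1a, which encodes the cyclin kinase inhibitor p21, was higher at 0.28 ± 0.04 (adjusted p = 7.75e-07). Genes of proliferation were higher in 17 of 31 and lower in 4 (67.7% called, against 34.4% of all tested genes), with a median of 0.23. With single libraries left out, 13 to 15 of them were called higher and 3 to 4 lower, with medians of 0.206 to 0.236. Over all tested genes, 2182 to 2516 were then called higher, against 2464 with all libraries. Among the proliferation genes Rrm2, a ribonucleotide reductase subunit, was higher at 0.76 ± 0.08 (adjusted p = 7.78e-09), Ccnd2 at 0.78 ± 0.10 (adjusted p = 1.66e-07), Mcm2 at 0.49 ± 0.06 (adjusted p = 7.81e-08) and Pcna at 0.41 ± 0.04 (adjusted p = 3.21e-09).

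The lists drawn around single members also held genes of both directions, and their called shares stand against the same 34.4% of all tested genes. Around Tsc22d3, 11 of 24 tested genes of the glucocorticoid receptor response were higher and 3 lower (58.3% called), with a median of 0.16, whereas Tsc22d3 itself was lower. Dusp1 (1.17 ± 0.07, adjusted p = 2.21e-12) and Nfkbia (1.04 ± 0.04, adjusted p = 3.15e-20) were higher, as was Sgk1, and Mertk was lower at -1.10 ± 0.07 (adjusted p = 6.00e-16). Mertk is counted again among the lower macrophage markers below. Around Txnip, 8 of 16 genes of thioredoxin and glucose sensing were higher and 3 lower (68.8% called), with a median of 0.14. These included Txnrd1, thioredoxin reductase (1.10 ± 0.04, adjusted p = 3.51e-22), the glucose transporter Slc2a1 (0.87 ± 0.05, adjusted p = 4.56e-16), Nlrp3 (0.43 ± 0.04, adjusted p = 4.02e-10) and Pfkfb3 (0.43 ± 0.04, adjusted p = 2.89e-10). Around Sesn1, 5 of 30 genes of amino acid sensing were higher and 9 lower (46.7% called), with a median of -0.02. Castor2, a paralog of the arginine sensor gene Castor1, was higher at 0.24 ± 0.05 (adjusted p = 4.25e-04), and Flcn at -0.38 ± 0.04 (adjusted p = 1.01e-08), Tfeb at -0.34 ± 0.06 (adjusted p = 1.74e-05) and Lamtor4 at -0.29 ± 0.06 (adjusted p = 2.20e-04) were lower.

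**Figure D5:**
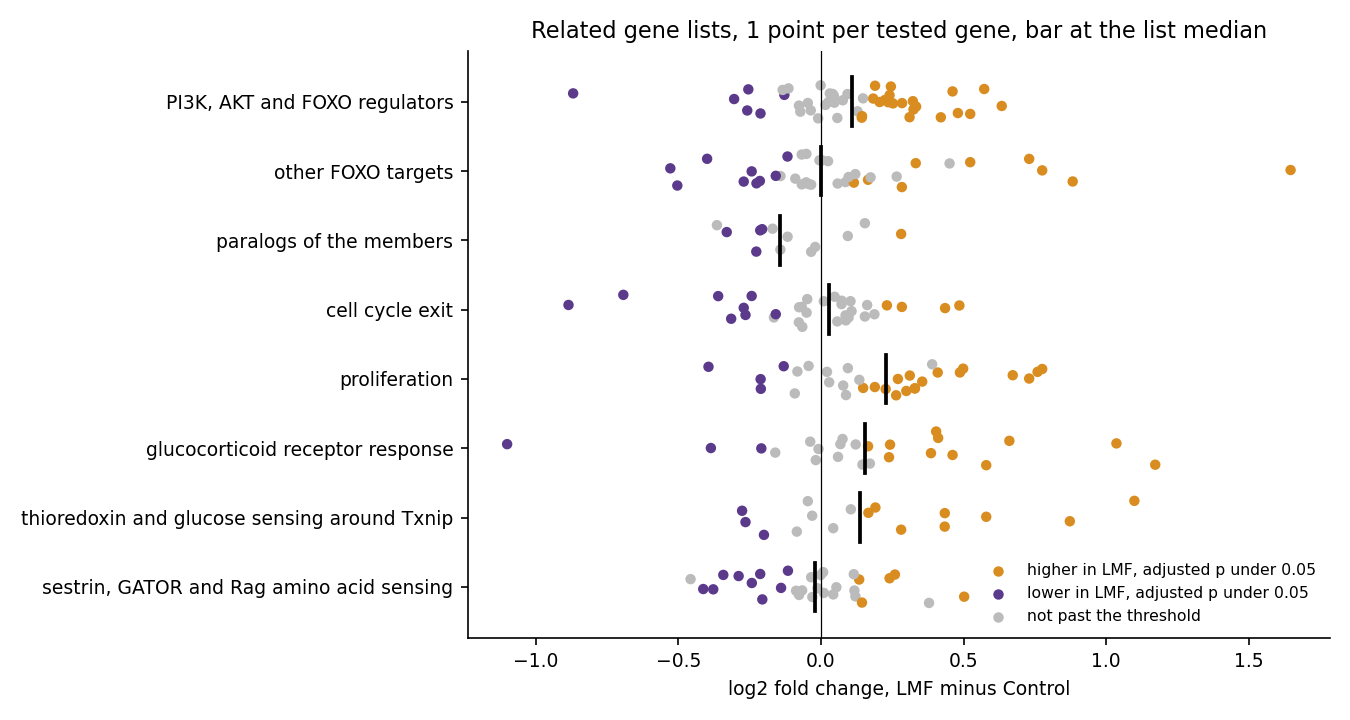
Log2 fold change, LMF over Control, of each tested gene in the 8 related lists, 1 point a gene, coloured by whether it was called higher, called lower or not called at an adjusted p of 0.05, with a black bar at the list's median. Regulators, proliferation, glucocorticoid and thioredoxin lists hold more genes called higher than lower in LMF, the paralog, cell cycle exit and amino acid sensing lists more called lower, and the other FOXO targets as many of each.

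Markers of some other cell types differed between the groups as well, but no T and NK cell marker was called. Marker counts are of genes called by edgeR at an adjusted p of 0.05, where 17.5% of all tested genes were higher and 16.9% lower. Of 13 macrophage markers, 9 were lower in LMF, with a summed level of 4783 to 4992 CPM in LMF and 6791 to 7513 CPM in Control. Most of the gap in that sum came from Apoe, which averaged 1302 CPM in LMF and 3162 CPM in Control. The macrophage markers not called were Adgre1 (0.05 ± 0.04), Csf1r (-0.02 ± 0.04), Cd68 (-0.02 ± 0.04) and Cd163 (0.17 ± 0.14). Monocyte markers summed to 2432 to 2556 CPM in LMF and 2821 to 2988 CPM in Control (4 of 8 higher, 2 lower), with a median log2 fold change of 0.21. The 2 lower ones were Ccr2, averaging 335 CPM in LMF and 752 CPM in Control, and Fn1, averaging 913 CPM in LMF and 1342 CPM in Control. Neutrophil markers summed to 3747 to 3861 CPM in LMF and 3316 to 3387 CPM in Control (9 of 14 higher, 1 lower). Mast cell and basophil markers summed to 146 to 160 CPM in LMF and 120 to 137 CPM in Control. Of 15 dendritic cell markers, 14 were tested (Cd209a held under 10 counts), 8 were higher and 2 lower in LMF, with a median log2 fold change of 0.26, and their sums overlapped, at 8225 to 9539 CPM in LMF and 8267 to 8717 CPM in Control. B cell markers summed to 44.5 to 52.1 CPM in LMF and 53.1 to 58.2 CPM in Control. T and NK cell markers stood at 13.9 to 18.6 CPM in LMF and 14.7 to 16.5 CPM in Control, and stromal markers at 5.19 to 7.35 CPM in LMF and 3.67 to 4.65 CPM in Control. No marker was at 0 in all libraries. The part of these cells in the members' values was not tested.

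Outside the members, the 5 genes whose level over the 8 libraries was most like the members' mean standardized level were Cnot6l (Pearson r = 0.993), Trim65 (0.985), Wdr41 (0.977), Trim16 (0.976) and Rassf5 (0.976), out of 10536 genes compared. Their log2 fold changes were -0.27, -0.62, -0.42, -0.69 and -0.28. The members' own correlations with their mean, in which each takes part, ran from 0.949 for Ypel2, 0.934 for Sesn1, 0.926 for Ccng2 and 0.907 for Foxo3 to 0.0958 for Ypel5 and -0.147 for Pik3ip1. All 8 libraries share the group difference, so these values describe the pattern and carry no p.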

How the data were processed

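Poly(A) RNA of 4 LMF and 4 Control libraries was analysed, grouped by sample title. Gene counts and FPKM were deposited by the authors in 1 table of 55880 rows. Per the submitters' processing notes, mm10, Trimmomatic, HISAT2 2.0.5, HTSeq and DESeq2 were used, with no settings or order. Nothing in the labels says that the replicates are separate cultures or animals. The p-values therefore cover only the variation among these 8 libraries, possibly technical. From the counts, edgeR 4.0.16 (R 4.3.3; filterByExpr, TMM, robust quasi-likelihood, group only, 6 residual degrees of freedom, common biological coefficient of variation 0.0661) tested 14074 genes with Benjamini-Hochberg adjustment at 0.05, and was tested on simulated data. The deposited FPKM were used for levels between genes and, as log2(FPKM + 1) and log2(FPKM + 0.1) in limma 3.58.1, as alternatives, beside DESeq2 1.42.0, other scalings, other filters, a replicate block and each library left out.

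Named were all members, all tested paralogs, in each other list the 4 called genes of smallest adjusted p, and the 5 genes of highest correlation with the members. The members and lists were chosen with earlier results of these data known. The table lists transcript lengths that differ from those implied by its FPKM for all members but Foxo1, so levels between genes rest on the authors' lengths. A MagRM group named in the series' design was not analysed here.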

Additional observations from a re-analysis of the deposited data

Results flagged for a closer look

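Of 100 groups of 4 libraries examined (members and named genes in each condition), 6 held a library far from the other 3, where chance gives about 5 by Dixon's test. No member was among them. Pik3r5 had 301 CPM in Control replicate 1, against 286 to 288 CPM in the other Control libraries. Trp53inp1 had 70.3 CPM in LMF replicate 2, against 74.5 to 74.7 CPM in the other LMF libraries. Ccni had 338 CPM in LMF replicate 4, against 355 to 356 CPM. Foxo4 had 29.6 CPM in LMF replicate 2, against 27.4 to 27.6 CPM. Tsc22d2 had 53.4 CPM in Control replicate 2, against 41.4 to 43.3 CPM. Btg2 had 90.3 CPM in Control replicate 2, against 87.3 to 87.7 CPM.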

How the results depend on the processing

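Over 16 alternatives, the members called lower numbered 5 or 6, the sixth being Ccng2 under upper-quartile factors and without Control replicate 3. Nothing is read from that count, since the members were chosen on this comparison. The log2 fold change of Ypel2 ran from -1.26 to -0.99 and that of Sesn1 from -0.97 to -0.87, and only Ypel5 (-0.01 to 0.05) and Pik3ip1 (-0.04 to 0.12) changed sign. Across all genes, 2464 higher and 2381 lower became 2401 and 2297 with DESeq2, and 2075 and 2238 with log2(FPKM + 1). The replicate numbers share only a digit and did not pair the libraries (correlations from -0.01 to 0.03); the replicate block gave 2417 higher, 2357 lower and 5 members lower. The glucocorticoid list median was 0.116 under log2(FPKM + 1). Leaving out single libraries, the median ran from -0.225 to -0.160 for the members, -0.161 to -0.0930 for paralogs, -0.0203 to 0.0291 for cell cycle exit and -0.0270 to 0.0331 for other FOXO targets, whose sign is thus undecided. Paralogs called higher ran from 1 to 3, and Sesn3 from -0.13 to 0.0404, with 0.0171 without LMF replicate 2. The cause of these shifts was not tested. Of 640 values for named genes, 631 kept direction and call.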
